A study of Mus musculus with 8 samples.

Results

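The comparison set the medial ganglionic eminence (MGE) against the caudal ganglionic eminence (CGE) in open chromatin of the embryonic mouse forebrain. The samples were assigned to groups by their labels: the 2 MGE samples and the 2 CGE samples, 4 of the 8 samples in the series, with the 2 lateral ganglionic eminence (LGE) samples kept in the fit so that the 6 eminence samples shared 1 estimate of the spread. Single-nucleus ATAC-seq was run on nuclei of wild-type (WT) mice, and all 6 eminence samples were labelled E12.5, an age in embryonic days. None carried a transgene or a treatment by its label. The remaining 2 samples, from cortex and labelled E12.5 and E14.5, entered the alternative fit with all 8 samples as 1 group of mixed age, and no other fit. The labels do not say whether replicates 1 and 2 came from separate embryos or how many embryos were pooled, so the p-values measured the spread between these samples, which may be technical. With 6 samples in 3 groups, 3 residual degrees of freedom remained for that spread.

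The MGE and CGE are neighbouring swellings of the ventral telencephalon that produce GABAergic interneurons. The MGE, under Sonic hedgehog signalling, is patterned by the homeodomain factor Nkx2-1, which acts upstream of Lhx6 in the cells that become parvalbumin and somatostatin interneurons, while Lhx8 marks its cholinergic lineage. The CGE lacks Nkx2-1, is rich in the orphan nuclear receptors Nr2f1 (COUP-TF1) and Nr2f2 (COUP-TF2), and gives rise to interneurons that depend on Prox1. ATAC-seq cuts DNA where it is not packed by nucleosomes, so the counts measured how open a promoter or enhancer was, not how much RNA its gene made.

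Counts of all nuclei of a sample were summed, and doublets were neither called nor removed before that. A difference between such sums cannot be told apart from a difference in the share of nuclei of a type. Values are given as CPM, the counts of a feature scaled to a library total of 1000000 counts, fold changes as log2 of MGE over CGE with their standard errors, and a difference was called at an adjusted p of at most 0.05 by the edgeR quasi-likelihood test over all features of its table. The 6 eminence samples held 3465 to 6845 nuclei and 77387940 to 138789944 counts in peaks. Each pair of these samples shared 15 to 56 nucleus barcodes, at most 1.17% of the smaller sample. Among nonzero entries of the deposited matrices, odd values made up 9.55% to 10.4% in the replicates numbered 1 and 5.17% to 5.85% in those numbered 2, so that each group held 1 sample of either kind.

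A set of 8 windows of 300 bases is printed here, each from a called region. The tests were made on whole regions, and no difference was measured within the 300 bases. All are from the + strand of GRCm38, read 5′ to 3′, and each is centred on the longest stretch covered by peaks of all 6 samples within its region. Capitals mark 3 short motifs on either strand: CACTTNA (bound by NK2 homeodomain factors such as NKX2-1), TAATTA (bound by DLX and LHX homeodomain factors) and TGACAG (bound by MEIS and TGIF factors). A match is a description of letters, not a binding site. The first pair comes from regions more open in MGE near Nkx2-1 and Lhx8, at chr12:56459093-56459392 and chr3:154385993-154386292. The former holds none of the 3 motifs, and the latter holds 2 copies of TGACAG.
Nkx2-1, higher in MGE: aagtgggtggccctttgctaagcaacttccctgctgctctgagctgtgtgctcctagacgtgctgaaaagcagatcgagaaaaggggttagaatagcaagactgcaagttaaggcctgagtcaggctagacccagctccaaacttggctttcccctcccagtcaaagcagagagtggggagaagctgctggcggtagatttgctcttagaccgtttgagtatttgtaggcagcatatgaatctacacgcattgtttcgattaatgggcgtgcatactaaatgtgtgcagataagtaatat
Lhx8, higher in MGE: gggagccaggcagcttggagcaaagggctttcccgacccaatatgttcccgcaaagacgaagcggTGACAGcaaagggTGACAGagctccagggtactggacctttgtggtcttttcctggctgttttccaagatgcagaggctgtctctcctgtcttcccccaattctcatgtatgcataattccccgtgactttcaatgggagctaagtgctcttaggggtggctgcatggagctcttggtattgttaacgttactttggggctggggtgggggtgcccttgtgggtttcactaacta
The second pair comes from regions less open in MGE near Nr2f1 and Nr2f2, at chr13:78581359-78581658 and chr7:70046911-70047210. Each holds 1 copy of TAATTA, and the Nr2f2 window also holds 2 of TGACAG.
Nr2f1, lower in MGE: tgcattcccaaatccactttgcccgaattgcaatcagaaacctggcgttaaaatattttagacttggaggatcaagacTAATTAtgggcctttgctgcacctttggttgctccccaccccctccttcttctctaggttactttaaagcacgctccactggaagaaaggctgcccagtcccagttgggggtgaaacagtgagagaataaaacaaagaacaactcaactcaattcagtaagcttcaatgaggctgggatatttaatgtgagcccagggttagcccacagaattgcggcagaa
Nr2f2, lower in MGE: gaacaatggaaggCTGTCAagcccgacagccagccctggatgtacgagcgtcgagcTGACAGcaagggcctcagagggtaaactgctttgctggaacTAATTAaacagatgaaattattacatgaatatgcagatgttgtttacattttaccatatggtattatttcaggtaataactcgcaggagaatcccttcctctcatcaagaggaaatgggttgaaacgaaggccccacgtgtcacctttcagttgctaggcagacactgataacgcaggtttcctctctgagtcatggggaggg
The other 4 windows were picked for their number of motif copies, so the copies are no finding. Their regions lie outside promoters and exons and passed the test without each sample in turn and with an allowance for covered length. The pair higher in MGE lies nearest to Mdm1 and Gjd2, at chr10:118113458-118113757 and chr2:113980736-113981035, with 3 copies of CACTTNA each. In the Mdm1 window 1 copy of TGACAG overlaps a copy of CACTTNA.
Mdm1, higher in MGE: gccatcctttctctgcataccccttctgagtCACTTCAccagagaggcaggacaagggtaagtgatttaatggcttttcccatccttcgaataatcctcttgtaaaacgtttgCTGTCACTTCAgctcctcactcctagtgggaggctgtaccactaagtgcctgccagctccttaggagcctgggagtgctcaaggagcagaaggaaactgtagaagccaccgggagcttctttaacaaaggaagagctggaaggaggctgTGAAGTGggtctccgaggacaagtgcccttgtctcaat
Gjd2, higher in MGE: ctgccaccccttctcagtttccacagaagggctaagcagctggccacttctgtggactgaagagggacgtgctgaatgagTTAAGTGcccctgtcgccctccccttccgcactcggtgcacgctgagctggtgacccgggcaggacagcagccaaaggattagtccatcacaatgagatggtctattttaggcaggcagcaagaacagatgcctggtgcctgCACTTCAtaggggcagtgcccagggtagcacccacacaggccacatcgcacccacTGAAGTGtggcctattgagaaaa
The pair lower in MGE lies in introns of Kif6 and Erbb4, at chr17:49816202-49816501 and chr1:68142665-68142964. The Kif6 window holds 1 copy of TAATTA and 3 of TGACAG, and the Erbb4 window holds 2 of each.
Kif6, lower in MGE: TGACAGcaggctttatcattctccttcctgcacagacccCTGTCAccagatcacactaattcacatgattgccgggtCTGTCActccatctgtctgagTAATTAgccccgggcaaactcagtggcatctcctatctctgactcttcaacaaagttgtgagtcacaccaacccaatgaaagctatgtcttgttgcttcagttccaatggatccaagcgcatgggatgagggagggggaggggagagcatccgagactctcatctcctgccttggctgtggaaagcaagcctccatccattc
Erbb4, lower in MGE: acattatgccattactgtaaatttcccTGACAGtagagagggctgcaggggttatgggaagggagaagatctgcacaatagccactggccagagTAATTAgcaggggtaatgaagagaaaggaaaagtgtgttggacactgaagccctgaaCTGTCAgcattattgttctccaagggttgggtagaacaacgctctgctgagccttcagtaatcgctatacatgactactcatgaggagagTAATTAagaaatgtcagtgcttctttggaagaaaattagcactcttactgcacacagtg

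Among regions with a peak in every eminence sample, more were called less open in MGE than more open, though this balance differed between fits. Peaks of the 6 eminence samples were merged into 223135 regions, and 77217 of them had a peak in every sample and were tested. Of these 7406 were called, a share of 9.59%, with 2888 (3.74%) higher and 4518 (5.85%) lower in MGE. The median fold was 2.74 among the higher regions, 3.00 among the lower and 1.25 among those not called. In all 7406 called regions the values of the MGE and CGE samples did not overlap, which also held for 52.5% of all regions tested.

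**Figure D1:**
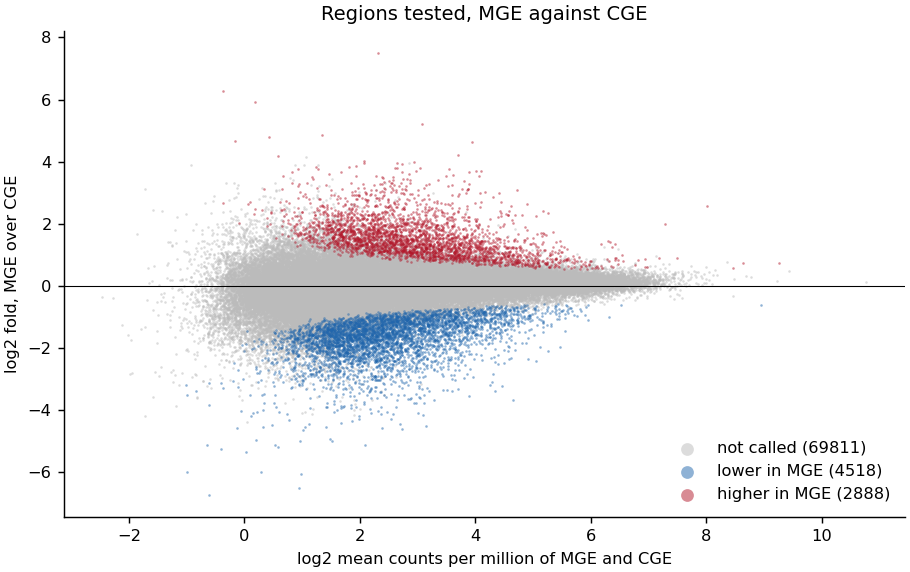
Each point is 1 of the 77217 regions, with the mean level on the horizontal axis (log2 CPM) and the difference on the vertical axis (log2 of MGE over CGE). The 2888 regions called higher in MGE (red) and the 4518 called lower (blue) lie on both sides of the regions not called (grey).

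The split between directions differed between fits. The authors called peaks in each sample separately, so a region could be covered over more of its length in one sample than in another. With covered length as an offset in the fit, 2711 regions were higher (3.51%) and 1888 lower (2.45%), and 1917 of the higher and 1684 of the lower calls were kept. Among regions covered over at least 50 percent of their length in all 4 samples, 2047 of the calls were higher and 1737 lower, while a fit of those 59509 regions alone called 2128 higher and 2289 lower. Of the 7406 calls, 1286 (387 higher and 899 lower) were kept without each of the 6 samples in turn, and in the fit with the cortex samples added 9 regions in all were called. Regions outside the test also differed in number: 3974 merged regions (1.79%) had a peak in both MGE samples and neither CGE sample, while 17921 (8.02%) had one in both CGE samples and neither MGE sample. The peak lists were of unequal length, with 105456 and 163509 peaks in MGE and 144195 and 182638 in CGE, and the part of this in those numbers was not tested.

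The called regions lay away from promoters. A promoter, here a region within 1 kb of a protein-coding start site, made up 5.58% of the higher and 2.28% of the lower regions against 20.1% of all regions tested. Introns held 40.3% of the higher and 42.8% of the lower regions, and intergenic sequence held 44.8% and 48.1%. The median distance to the nearest start site was 39.5 kb for higher and 65.7 kb for lower regions against 22.8 kb for all regions. Their base composition differed too, with a median GC content of 47.7% in higher, 44.95% in lower and 48.9% in regions not called.

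In these regions the LGE samples were nearer to CGE than to MGE. Among regions higher in MGE the median level was 10.9 CPM in MGE, 4.25 in LGE and 3.61 in CGE. Among regions lower in MGE it was 2.42, 6.70 and 7.85 CPM in the same order. The LGE mean was nearer to the CGE mean in 79.6% of the higher and 84.4% of the lower regions, against 60.5% of the regions not called. Since regions were called for a difference between MGE and CGE, these shares are descriptions without a test.

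Nkx2-1, the defining gene of MGE, was far more open in the samples labelled MGE. Over the Nkx2-1 body with 2 kb upstream, the MGE samples had 540 and 363 CPM, the LGE samples 36.4 and 33.7, and the CGE samples 38.5 and 32.4. MGE and CGE did not overlap, and the log2 fold of 3.67 ± 0.23 (SE) was called with an adjusted p of 0.00477, which was kept without each sample in turn. The MGE peaks covered more of the gene, with 24.3 and 21.5 kb against 6.12 and 6.34 kb in CGE. Per covered kb the MGE samples had 22.2 and 16.9 CPM and the CGE samples 6.29 and 5.11. With covered length as an offset the gene's log2 fold was 1.78 with an adjusted p of 0.335.

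Around Nkx2-1, 5 of 6 tested regions were higher in MGE and none lower, by edgeR at the threshold above, where 3.74% and 5.85% of all regions were. The sixth was also higher once covered length was an offset. The gene lay inside a region of 24.3 kb, chr12:56517497-56541787, with 534 and 354 CPM in MGE, 67.8 and 79.3 in LGE, and 76.2 and 72.4 in CGE. Its log2 fold was 2.58 ± 0.21 (adjusted p = 0.00279), and it remained 2.09 with the offset. The called regions beyond it lay on the 3′ side of the gene. At chr12:56454128-56460467, 74.6 kb from the start and the source of the Nkx2-1 window printed above, MGE had 127 and 104 CPM and CGE 47.8 and 37.8 (log2 fold 1.44 ± 0.18, adjusted p = 0.00531). At chr12:56439432-56442590, 92.5 kb away, MGE had 35.8 and 27.7 CPM, LGE 1.15 and 1.73, and CGE 3.72 and 1.18. That region had the largest log2 fold of the locus, 3.69 ± 0.51 (adjusted p = 0.00666). Without CGE replicate 2, 3 of the 5 calls remained (largest adjusted p 0.0593). All 5 were kept without each of the other samples and with the offset.

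Lhx6, the LIM homeodomain factor downstream of Nkx2-1, lay in a single region of 30.5 kb (chr2:36076465-36106951). That region had 269 and 228 CPM in MGE, 45.9 and 61.0 in LGE, and 58.95 and 66.03 in CGE. The groups did not overlap, and the log2 fold of 1.99 ± 0.18 was called (adjusted p = 0.00296) without each sample in turn and with the offset, where it was 0.88. As a gene body Lhx6 had a log2 fold of 2.22 ± 0.17 (adjusted p = 0.0104). That call was lost without MGE replicate 1, CGE replicate 1 or CGE replicate 2, with adjusted p up to 0.0941. The neighbouring gene Morn5 overlaps the same peaks, with 98.5% of its counts in at least 1 sample shared with another gene, so its log2 fold of 2.86 ± 0.14 cannot be told apart from that of Lhx6.

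Lhx8, a LIM homeodomain factor of cholinergic neurons, had 5 regions higher and 2 lower in MGE of 14 tested, where 3.74% and 5.85% of all regions were. Its promoter region, chr3:154323743-154336839, had 114 and 120 CPM in MGE, 59.5 and 71.9 in LGE, and 44.4 and 52.8 in CGE (log2 fold 1.26 ± 0.16, adjusted p = 0.00565). The region at chr3:154384775-154390104, 54.1 kb upstream and the source of the Lhx8 window, had 43.4 and 58.6 CPM in MGE, 18.8 and 19.1 in LGE, and 15.2 and 16.7 in CGE. Its log2 fold was 1.68 ± 0.19 (adjusted p = 0.00413). Both regions were called without each sample in turn and with the offset. Of the 7 calls at this gene, 2 remained when either CGE sample was left out (largest adjusted p 0.178). As a gene body Lhx8 was just inside the threshold, at 121 and 138 CPM against 52.9 and 56.7 (log2 fold 1.24 ± 0.14, adjusted p = 0.0497), and the call was kept without MGE replicate 2 and lost without each of the other 5 samples (adjusted p up to 0.298).

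The rest of the MGE identity list held regions of both directions. Of its 20 genes tested as bodies, 3 were called, all higher, where 0.111% of all 17145 genes were called. With Nkx2-1, Lhx6 and Lhx8 included, 16 of the 20 had a higher mean in MGE, and 8 had an unadjusted p under 0.05, all higher. Of all 17145 genes, 8570 had a higher mean in MGE, and 753 were higher and 971 lower at an unadjusted p under 0.05. Regions at the 20 genes were called higher in 27 and lower in 31 of 358 cases, or 7.54% and 8.66%, where the shares over all regions were 3.74% and 5.85%. With covered length as an offset 29 were higher (8.10% against 3.51% over all regions) and 16 lower (4.47% against 2.45%), where the balance over all regions turned too, and without 1 sample at a time 7 to 30 were higher and 8 to 42 lower. Sox6, a factor of migrating MGE interneurons, had 5 higher and 7 lower of 50 regions (3 and 2 with the offset), and its body had 468 and 496 CPM in MGE against 410 and 426 in CGE (adjusted p = 0.579). Zfhx3 had no higher and 6 lower of 83 regions, and 1 of each with the offset. Erbb4, the neuregulin receptor of migrating interneurons, had regions of both signs. Its promoter (chr1:69104782-69109005) was higher in MGE, with 63.9 and 67.7 CPM against 40.3 and 38.3 (log2 fold 0.74 ± 0.14, adjusted p = 0.017), a call lost without either CGE sample (adjusted p up to 0.0965). The intronic region at chr1:68142331-68143610, which holds the Erbb4 window printed above, was lower, with 1.25 and 2.10 CPM in MGE, 12.4 and 9.20 in LGE, and 17.8 and 14.7 in CGE (log2 fold -3.29 ± 0.32, adjusted p = 0.00303). Maf, a factor of MGE-derived interneurons, had 2 higher and 2 lower of 39 regions. One was higher at chr8:115222056-115223304, with 9.13 and 12.7 CPM against 1.48 and 2.06 in CGE (log2 fold 2.63 ± 0.29, adjusted p = 0.00399). Another was lower at chr8:115141074-115143014, with 2.77 and 2.60 CPM against 8.37 and 8.57 (log2 fold -1.66 ± 0.20, adjusted p = 0.00492), and was not called with the offset. Both lie in introns of Wwox, 484 and 564 kb from the Maf start.

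Nr2f1, the orphan receptor that marks CGE, as a gene body had 308 and 288 CPM in MGE, 179 and 162 in LGE, and 445 and 681 in CGE. MGE and CGE did not overlap, but the log2 fold of -0.92 ± 0.20 had an adjusted p of 0.231 by edgeR, against 0.00072 by DESeq2. Of 26 regions at the gene, 9 were lower in MGE and none higher, where 5.85% of all regions were lower and 3.74% higher. The region of 54.0 kb over the gene (chr13:78159945-78213950) was among them, with 423 and 368 CPM against 541 and 660 in CGE (log2 fold -0.60 ± 0.13, adjusted p = 0.031). That call was lost with the offset (log2 fold -0.39), with MGE and CGE only, with all 8 samples, among regions with a peak in at least 2 samples, and when any 1 sample other than CGE replicate 1 was left out.

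The 3 largest differences at Nr2f1 lay 380.2 to 497.5 kb from its start. The region of the Nr2f1 window, chr13:78579981-78583243, had 4.62 and 7.86 CPM in MGE, 35.3 and 36.3 in LGE, and 33.9 and 37.8 in CGE. Its log2 fold was -2.53 ± 0.26 (adjusted p = 0.00337). At chr13:78697301-78698509 MGE had 0.427 and 0.916 CPM, LGE 1.89 and 2.23, and CGE 5.44 and 7.77 (log2 fold -3.32 ± 0.43, adjusted p = 0.00585). In the former LGE was level with CGE and in the latter it lay between, without overlap with either. Both calls were kept without each sample in turn and with the offset, where they were -1.41 and -1.24. Of the 9 calls, 5 remained without MGE replicate 1, 4 without CGE replicate 2, and 5 with the offset (1 other region was then higher).

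Nr2f2, whose body had 246 and 223 CPM in MGE and 256 and 496 in CGE (log2 fold -0.68, adjusted p = 0.553), had 8 lower and 1 higher of 28 regions, where 5.85% and 3.74% of all regions were. The region of the Nr2f2 window, chr7:70046431-70047601, had 3.10 and 3.14 CPM in MGE, 5.27 and 5.35 in LGE, and 9.16 and 8.28 in CGE. Its log2 fold of -1.48 ± 0.21 was called (adjusted p = 0.0075) but not without CGE replicate 1 (adjusted p = 0.0613). The region at chr7:69572224-69574213, 786 kb from the start, had 8.67 and 7.66 CPM against 19.5 and 28.7 (log2 fold -1.56 ± 0.23), a call lost without CGE replicate 2 (adjusted p = 0.0556). Of the 9 calls at this gene, 5 remained when MGE replicate 1 was left out, 2 when the first and 1 when the other CGE sample was, all with the same sign and with adjusted p up to 0.163.

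**Figure D2:**
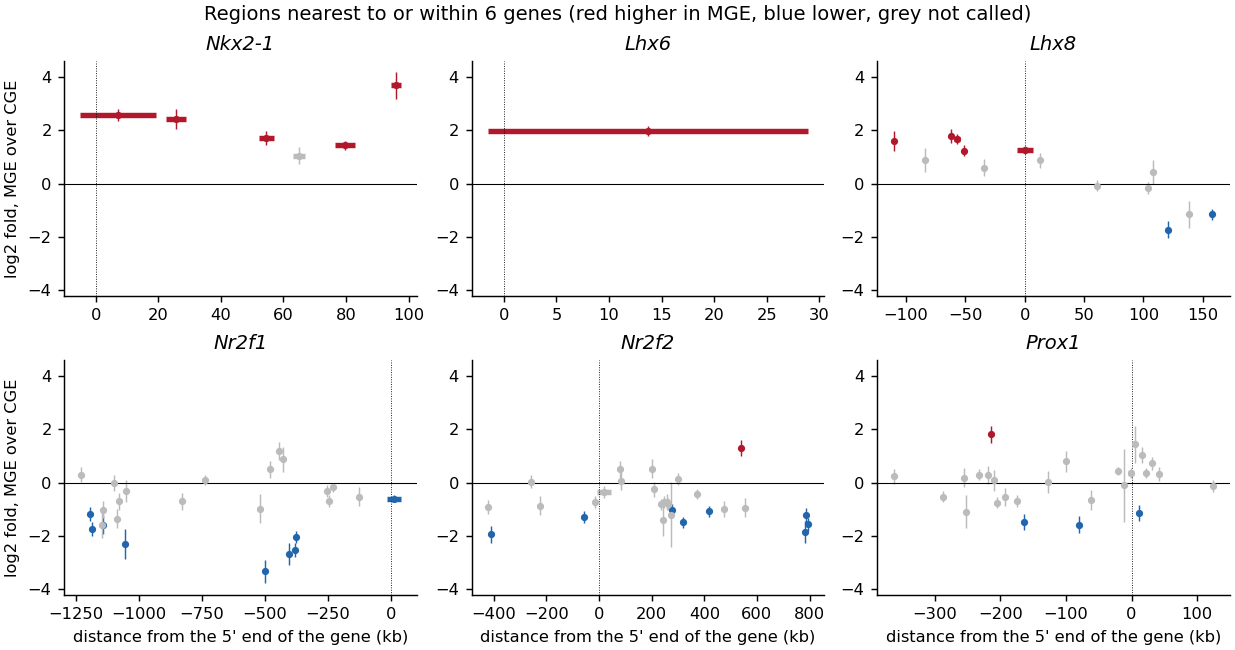
Log2 fold of MGE over CGE (vertical axis, error bars SE) of each tested region at 6 genes, by distance from the gene's 5′ end in kb (horizontal axis, bars span the region). The called regions of Nkx2-1 and Lhx6 are all higher in MGE (red), those of Nr2f1 are all lower (blue), and Lhx8, Nr2f2 and Prox1 hold both.

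Prox1, the homeodomain factor that CGE interneurons need, had its higher mean in MGE as a gene body, with 183 and 159 CPM in MGE, 115 and 123 in LGE, and 128 and 137 in CGE. That difference was not called (log2 fold 0.37 ± 0.13, adjusted p = 0.419). Its regions held 1 higher and 3 lower of 26, and none of the 4 calls stood without either CGE sample (adjusted p up to 0.239). Sp8, a zinc finger factor of dorsal LGE and CGE, had 1 higher and 2 lower of 16 regions. Its region chr12:118725544-118726755 was lower, with 1.195 and 1.61 CPM against 8.26 and 6.87 (log2 fold -2.44 ± 0.27, adjusted p = 0.00403). Nfib, a nuclear factor I gene, had 3 higher and 3 lower of 44 regions (1 of each with the offset), where 3.74% and 5.85% of all regions were. Its promoter region was lower at 43.4 and 38.7 CPM against 77.7 and 78.6, with LGE at 67.46 and 66.96 (chr4:82702662-82707330, log2 fold -0.93 ± 0.14, adjusted p = 0.00835). Both of these calls were kept without each sample in turn and with the offset. The higher region nearest to Sp8, 7.5 kb away at chr12:118833713-118838829, had 22.1 and 24.7 CPM against 13.4 and 15.3 (log2 fold 0.71 ± 0.18, adjusted p = 0.0445), a call lost without each sample in turn, and its log2 fold was -0.0335 with the offset. The higher Nfib region with the smallest p, 24.4 kb from the start at chr4:82730121-82732144, had 10.9 and 15.4 CPM against 4.50 and 3.60 (log2 fold 1.69 ± 0.25, adjusted p = 0.00826), a call lost without CGE replicate 2 (adjusted p = 0.0667) and with the offset.

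Over the CGE identity list as a whole, no gene body was called by edgeR among 17 tested of 18 members, with 1 higher and 3 lower at an unadjusted p under 0.05 and 2 lower by DESeq2. Of all 17145 genes, 753 were higher and 971 lower at an unadjusted p under 0.05, and 230 and 352 by DESeq2. Of the list's 320 regions 13 were higher (4.06% against 3.74% over all regions) and 40 lower, where the share of lower calls over all regions was 5.85%. With the offset the counts were 12 higher and 17 lower, and without 1 sample at a time the lower calls ranged from 12 to 55. The offset shares were 3.75% higher and 5.31% lower, against 3.51% and 2.45% over all regions. Several list members had regions higher in MGE, such as Htr3a, the serotonin receptor subunit of CGE interneurons, at chr9:48928496-48930160 (13.0 and 11.4 CPM against 5.65 and 5.18, log2 fold 1.18 ± 0.21, adjusted p = 0.0156). That call was lost without either CGE sample and with the offset. Efnb2, an ephrin ligand, had 3 higher and 4 lower of 25 regions (3 and 1 with the offset). An intronic region was lower at chr8:8633519-8637362, with 0.854 and 0.930 CPM in MGE against 5.27 and 4.49 in CGE (log2 fold -2.45 ± 0.30, adjusted p = 0.00518), kept without each sample in turn but turned with the offset, where the log2 fold was 0.23. Another, 262 kb away, was higher at chr8:8376254-8377607 with 19.4 and 29.4 CPM in MGE, 1.501 and 3.28 in LGE, and 2.66 and 2.95 in CGE (log2 fold 3.12 ± 0.40, adjusted p = 0.00552), and it was kept without each sample in turn and with the offset.

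**Figure D3:**
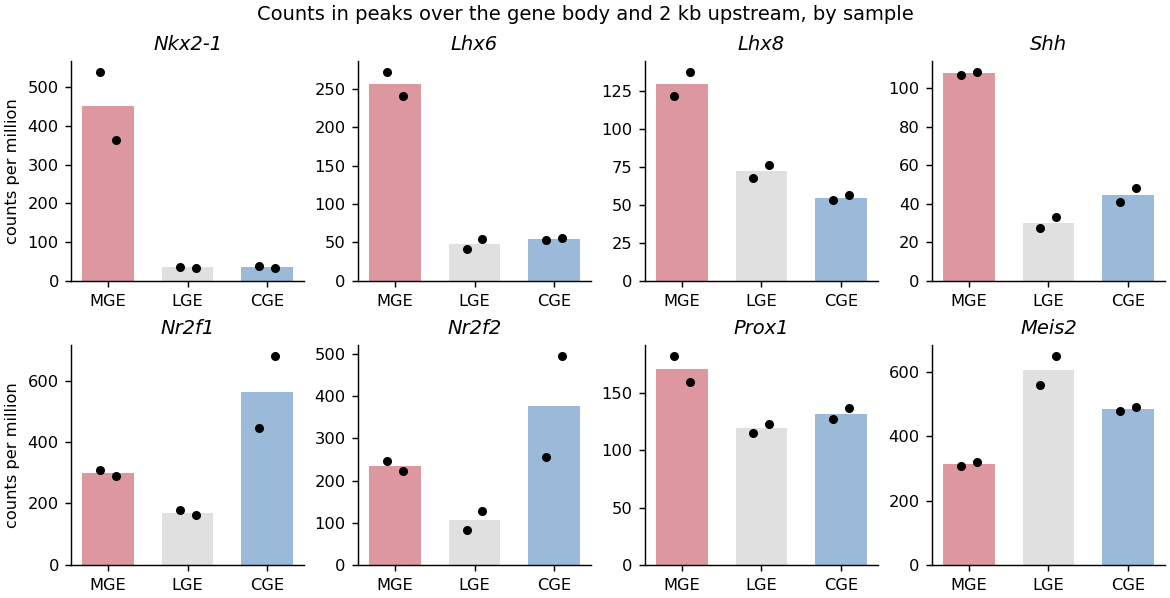
CPM over the gene body and 2 kb upstream of 8 genes in the 6 eminence samples (dots, single samples; bars, the mean of 2 samples, from 0). Nkx2-1 stands at 540 and 363 CPM in MGE against 32.4 to 38.5 in LGE and CGE, whereas for Nr2f1 the CGE samples are the highest at 445 and 681 CPM.

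Few genes were called when counts were summed over gene bodies. Of 17145 genes, 19 passed (0.111%), with 12 higher (0.07%) and 7 lower (0.0408%), while DESeq2 called 582. With the replicate number as a term 3 genes were called. None of the 19 passed with covered length as an offset, where 685 genes had an unadjusted p under 0.05. Of the 19 calls, 3 were kept when MGE replicate 1 was left out, 5 when CGE replicate 1 was, 9 when CGE replicate 2 was and 18 when any other single sample was. In the fit with the cortex samples added, 15 were kept.

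Several of the 12 higher genes share peaks with neighbours, so their identity is uncertain. Plppr3, a lipid phosphatase related protein of neurons, had 288 and 248 CPM in MGE and 61.5 and 66.5 in CGE (log2 fold 2.07 ± 0.14, adjusted p = 0.00643), a call lost without MGE replicate 1 or CGE replicate 1 (adjusted p up to 0.0818). All of its counts lay in peaks that another gene also overlaps in at least 1 sample, as did those of Ccdc188 (log2 fold 3.49), Lypd4 (1.91) and Dmrtc2 (1.86). Rasgrp2, a guanine nucleotide exchange factor for Rap, had 168 and 133 CPM against 35.1 and 37.8 (log2 fold 2.05 ± 0.17), with 99.3% of counts shared. The others were Dnal1 (1.46), Ccdc32 (1.32) and Hsd17b3 (1.61). Directions turned for Dnal1 (-0.15) and Ccdc32 (-0.21) when peaks within 1 kb of a start site alone were counted, and for Morn5 (-0.39) with the covered-length offset. All the calls named here except Nkx2-1 and Morn5 were lost without MGE replicate 1 or without CGE replicate 1, or without both.

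None of the 7 lower genes belonged to a list. The gene 4930415O20Rik had 9.31 and 9.23 CPM in MGE, 9.21 and 8.90 in LGE, and 65.7 and 78.8 in CGE (log2 fold -2.96 ± 0.15, adjusted p = 0.00278). Cdh17, a cadherin best known from intestine, had 6.72 and 8.08 CPM in MGE, 55.7 and 48.5 in LGE, and 50.8 and 43.1 in CGE (log2 fold -2.67 ± 0.17, adjusted p = 0.00477). LGE was level with MGE in the former and with CGE in the latter. Both calls were lost without MGE replicate 1 (adjusted p 0.0512 and 0.0562). Myh15, Plekhs1 and Veph1 were also lower, with log2 folds of -2.23, -1.55 and -1.51. Sohlh1 was at 0 in both MGE samples and at 8.51 and 5.13 CPM in CGE. Omp was at 0 and 0.0441 CPM in MGE and at 32.2 and 25.4 in CGE. No fold is given for either. Counts came only from a sample's own peaks, and genes, unlike regions, did not need a peak in every sample. A value of 0 can thus mean that no peak was called at the gene, not that its chromatin was measured as closed. The part of peak calling in the calls of Sohlh1 and Omp was not tested.

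The 12 regions with the largest folds, among called regions covered over at least 50 percent of their length in the 4 samples, lay in introns, an exon or intergenic sequence. Folds ran from 8.73 to 11.7 for the 6 higher and from 6.01 to 9.06 for the 6 lower regions. The region at chr11:36161347-36162580, in an intron of Tenm2 (teneurin 2, a synaptic adhesion protein), had 17.5 and 33.5 CPM in MGE, 5.56 and 9.38 in LGE, and 2.17 and 2.76 in CGE (log2 fold 3.37 ± 0.40, adjusted p = 0.00459). The region at chr12:98123245-98124268, 119 kb from Galc, had 10.4 and 14.7 CPM against 1.47 and 1.23 (log2 fold 3.22 ± 0.28, adjusted p = 0.00296). The others higher in MGE lay nearest to Adgrl2 (3.23), Nyap2 (3.20), 4933405O20Rik (3.13) and Ss18 (3.54). The Ss18 region, on chromosome 18, was the least stable, with its call lost without either MGE or either CGE sample (adjusted p up to 0.153). The other 5 were kept without each sample in turn, as were all 6 lower regions.

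Among the lower regions, chr4:65686196-65687749 lay in an intron of Astn2 (astrotactin 2, which acts in glial-guided migration of neurons) and held 3.53 and 4.05 CPM in MGE, 21.3 and 17.6 in LGE, and 33.9 and 34.7 in CGE. Its log2 fold was -3.18 ± 0.19 (adjusted p = 0.00203), and of the 12 regions it alone was called in the fit with all 8 samples (adjusted p = 0.0316). At chr6:36754689-36756082, in an intron of Ptn (pleiotrophin, a secreted growth factor), MGE had 3.04 and 3.53 CPM, LGE 30.4 and 28.3, and CGE 23.8 and 15.5 (log2 fold -2.59 ± 0.25, adjusted p = 0.00302). The remaining lower regions lay nearest to Arfgap2 (-2.84), Fam91a1 (-2.72), Chchd3 (-2.72) and Parp11 (-2.64).

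Calls were also counted by nearest gene, where 3.74% of all regions were higher and 5.85% lower. The genes with the most regions higher in MGE were Grik3, a kainate receptor subunit, with 9 of 43, Zmiz1 with 9 of 52, Zfp608 with 9 of 79, Rybp with 8 of 37 and 3100002H09Rik with 8 of 38. Those with the most lower regions were Auts2 with 17 of 119, Cdh4 (R-cadherin) with 14 of 89, Dab1, the adaptor of Reelin signalling, with 13 of 47, Rbfox1, a neuronal splicing factor, with 13 of 73 and Tenm4 with 13 of 83. Several of these also had calls of the opposite sign, with 7 higher at Auts2, 6 higher at Tenm4 and 5 lower at Zfp608. Genes with more regions had more chances to be called, and these counts are not adjusted for that.

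The pan-GABAergic list, genes shared by GABAergic progenitors and neurons of the ventral forebrain, had 13 higher and no lower regions of 97, or 13.4% against 3.74% over all regions by edgeR. The median log2 fold of its regions was 0.41, against -0.01 over all regions. Not every member had a call, with none among the 4 regions of Gad1 and the 6 of Gad2. The bHLH genes Olig1 and Olig2, active in ventral progenitors and in oligodendrocyte precursors, were in this list with 3 and 2 higher regions. The Olig2 promoter region had 227 and 154 CPM in MGE, 111 and 122 in LGE, and 94.6 and 109 in CGE (log2 fold 0.90 ± 0.20, adjusted p = 0.0299), a call lost without MGE replicate 1 or either CGE sample (adjusted p up to 0.13). The region over Dlx1 and Dlx2, paired homeodomain genes of subpallial neurons, had 548 and 447 CPM in MGE, 332 and 404 in LGE, and 261 and 334 in CGE (chr2:71522721-71548667, log2 fold 0.74 ± 0.17, adjusted p = 0.0359). That call was lost without MGE replicate 1, CGE replicate 1 or CGE replicate 2 (adjusted p up to 0.135). The number of higher regions in the list ranged from 1 to 22 without 1 sample at a time and was 9 with the offset. With the offset 9.28% of the list's regions were higher, against 3.51% of all regions. No gene body of the list was called by edgeR among 11 tested, with 6 higher at an unadjusted p under 0.05 and 4 by DESeq2. Of all 17145 genes, 753 were higher at that unadjusted p and 230 by DESeq2. The glutamatergic list, genes of pallial excitatory neurons and their progenitors, went the other way, with 1 higher (1.35%) and 9 lower (12.2%) of 74 regions, where 3.74% and 5.85% of all regions were. With the offset 2 were higher and 5 lower, and without 1 sample at a time 3 to 18 were lower. These offset shares were 2.70% higher and 6.76% lower, against 3.51% and 2.45% over all regions. The summed level of the glutamatergic list over gene bodies was 577 and 539 CPM in MGE, 665 and 735 in LGE, and 674 and 771 in CGE. The summed level of the pan-GABAergic list was 3140 and 2727 CPM in MGE, 1528 and 2325 in LGE, and 1834 and 2128 in CGE. The part of these lists in the other results was not tested.

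Regions at glutamatergic genes lower in MGE included one 12.6 kb from Neurog2, the proneural factor of pallial progenitors, with 1.93 and 2.76 CPM against 11.5 and 10.4 in CGE (log2 fold -2.23 ± 0.27, adjusted p = 0.00491). Another, 10.4 kb from the start of Slc17a6, a vesicular glutamate transporter, had 4.34 and 4.72 CPM against 14.6 and 15.7 (log2 fold -1.74 ± 0.26, adjusted p = 0.00801), a call lost without CGE replicate 2 (adjusted p = 0.0507). A region in an intron of Sfxn5, 35.9 kb from the start of Emx1, a pallial homeodomain gene, had 4.27 and 3.36 CPM against 11.7 and 17.0 (log2 fold -1.91 ± 0.26, adjusted p = 0.00677).

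The LGE and striatal list had 18 higher (4.31% against 3.74% over all regions) and 45 lower (10.8% against 5.85%) of 418 regions. With the offset 22 were higher (5.26% against 3.51% over all regions) and 20 lower (4.78% against 2.45%), and without 1 sample at a time 14 to 77 were lower. Meis2, a TALE homeodomain factor of striatal precursors, had 9 lower and no higher of 25 regions (4 lower with the offset). Its intronic region at chr2:116034122-116037803 had 3.11 and 2.67 CPM in MGE, 23.7 and 24.9 in LGE, and 13.4 and 11.7 in CGE (log2 fold -2.12 ± 0.20, adjusted p = 0.00296). LGE was here the highest and MGE the lowest, with no overlap between any 2 groups. Foxp1, a forkhead factor of striatal neurons, had 6 lower and no higher of 37 regions (3 and 1 with the offset), and Meis1 had 6 lower and 1 higher of 37 (2 and 1). Other members of the list had more higher than lower calls. Zfp521 had 4 higher and 1 lower of 32 regions (5 and 1 with the offset) and Bcl11b 3 and 1 of 30 (2 and 0). Six3 had 2 higher and none lower of 23, and Sp9, Rxrg and Tac1 each had 1 higher and none lower. The median log2 fold of all tested regions was nonetheless negative at Zfp521 (-0.29) and Tac1 (-0.19). A region within Pax6, a paired-box factor of dorsal progenitors, had 25.3 and 21.9 CPM in MGE, 51.5 and 46.2 in LGE, and 56.0 and 55.9 in CGE (log2 fold -1.25 ± 0.15, adjusted p = 0.00516). In all, Pax6 had 3 lower and 1 higher of 10 regions (2 and 1 with the offset). As gene bodies Meis2 and Pax6 each had a log2 fold of -0.63, with adjusted p of 0.168 and 0.160.

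The Sonic hedgehog pathway list had 10 higher (7.09%) and 22 lower (15.6%) of 141 regions, where 3.74% and 5.85% of all regions were, with a median log2 fold of -0.37. Without 1 sample at a time 3 to 10 were higher and 3 to 30 lower, and with the offset 15 were higher (10.6% against 3.51% over all regions) and 4 lower (2.84% against 2.45%). Its members differed in direction. At Shh, the ligand, 2 of 5 regions were higher, among them the promoter region chr5:28457665-28467800, with 106 and 103 CPM in MGE, 25.1 and 32.1 in LGE, and 35.3 and 46.9 in CGE (log2 fold 1.34 ± 0.19, adjusted p = 0.00774). That call was kept without each sample in turn and with the offset. As a gene body Shh had a log2 fold of 1.27 ± 0.16 (adjusted p = 0.0652). At Boc, a co-receptor for Shh, a region 41.6 kb away had 26.4 and 33.8 CPM in MGE, 2.51 and 4.57 in LGE, and 2.12 and 2.53 in CGE (chr16:44600469-44602827, log2 fold 3.69 ± 0.33, adjusted p = 0.00296), while 4 other regions of the gene were lower. Of the regions at Boc, 1 was higher and 1 lower with the offset. At the transcription factors Gli3 and Gli2, 6 of 19 and 5 of 21 regions were lower and none higher. With the offset Gli3 had 3 higher and 1 lower and Gli2 had 1 higher and no lower. The Gli2 region with the smallest p had a log2 fold of -1.95 that was -0.34 with the offset, and that of Gli3 went from -1.42 to 0.32.

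Markers of neighbouring forebrain tissue, which a dissection could include, had 13 higher (8.13%) and 9 lower of 160 regions, where 3.74% and 5.85% of all regions were. With the offset 14 were higher and 1 lower, and without 1 sample at a time 3 to 18 were higher and 1 to 12 lower. The offset shares were 8.75% higher and 0.625% lower, against 3.51% and 2.45% over all regions. The summed level of these markers over gene bodies was 1767 and 1745 CPM in MGE, 1273 and 1701 in LGE, and 1125 and 1344 in CGE. The Zic genes are active in septum and midline. Zic4 had 6 higher and no lower of 17 regions, one of them, 77.5 kb from its start, at 21.8 and 31.9 CPM in MGE against 6.69 and 5.33 in CGE (log2 fold 2.16 ± 0.25, adjusted p = 0.00433). Over Zic1, which shares peaks with Zic4, a region had 61.7 and 60.7 CPM in MGE, 38.2 and 49.7 in LGE, and 21.1 and 24.5 in CGE (log2 fold 1.43 ± 0.18, adjusted p = 0.00538). Zic1 and Zic4 as gene bodies had adjusted p of 0.109 and 0.0809. The part of these markers in the other results was not tested. Endothelial markers summed to 248 and 227 CPM in MGE and to 245 and 191 in CGE, which overlap. Microglial markers summed to 156 and 152 CPM in MGE and, somewhat higher, to 167 and 162 in CGE.

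Shares varied among the remaining lists, against 3.74% higher and 5.85% lower over all regions. The progenitor list had 12 higher (6.03%) and 18 lower (9.05%) of 199 regions and the neuronal list 9 higher (4.57%) and 16 lower (8.12%) of 197. With the offset the progenitor list had 8 higher and 13 lower and the neuronal list 6 and 3, and without 1 sample at a time the lower calls ranged from 6 to 19 and from 2 to 22. Over all regions the offset shares were 3.51% higher and 2.45% lower. They were 4.02% and 6.53% for the progenitor list and 3.05% and 1.52% for the neuronal list. Progenitor genes summed to 2445 and 1892 CPM in MGE, 1667 and 2188 in LGE, and 1734 and 1854 in CGE, and neuronal genes to 2155 and 2234, 1983 and 1910, and 2272 and 2308. MGE and CGE did not overlap in either sum, with MGE above CGE for progenitor and below it for neuronal genes. The nearest samples were close, at 1892 CPM in MGE and 1854 in CGE for progenitor and 2234 and 2272 for neuronal genes. Lack of overlap also held for 52.5% of all regions tested. The part of these sums in the other results was not tested. The axon guidance and migration list had 39 higher (6.08%) and 67 lower (10.5%) of 641 regions, the ion channel and receptor list 7 higher (3.57%) and 22 lower (11.2%) of 196, and the retinoid pathway 6 higher and 1 lower of 99. With the offset the axon guidance list had 47 higher (7.33%) and 40 lower (6.24%), where 3.51% and 2.45% of all regions were. The ion channel list then had 10 (5.10%) and 11 (5.61%), and the retinoid pathway 5 (5.05%) and 1 (1.01%). Without 1 sample at a time the lower calls ranged from 16 to 127 for axon guidance and from 7 to 41 for ion channels, and the higher calls from 0 to 15 for the retinoid pathway. Robo1, a Slit receptor, had 10 lower and 3 higher of 64 regions, and 5 of each with the offset. Other members went the other way. Ephb1 had 1 lower and 6 higher of 43 regions, and 1 and 8 with the offset. Ntn1 had no lower and 3 higher of 24, and 0 and 2 with the offset. Nrg1, the ligand of Erbb4, had 8 lower and no higher of 38, and 6 and 2 with the offset. Its intronic region at chr8:32284236-32285259 had 1.95 and 2.51 CPM in MGE, 18.5 and 16.9 in LGE, and 14.9 and 12.3 in CGE (log2 fold -2.61 ± 0.23, adjusted p = 0.00296). Oligodendrocyte precursor markers had 5 higher and no lower of 31 regions, 1 higher with the offset and 1 to 7 higher without 1 sample at a time. The region 60.4 kb from Pdgfra, the receptor that marks these cells, had 28.1 and 24.6 CPM in MGE, 8.18 and 11.3 in LGE, and 10.1 and 9.21 in CGE (chr5:75222269-75224467, log2 fold 1.45 ± 0.21, adjusted p = 0.00807), a call lost without CGE replicate 2 (adjusted p = 0.0638). No gene body of the 19 lists other than MGE identity was called by edgeR, with 0 to 10 members of a list in 1 direction at an unadjusted p under 0.05, while DESeq2 called members of 13 of these lists. Of all 17145 genes, 1724 had an unadjusted p under 0.05 by edgeR, and DESeq2 called 582.

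**Figure D4:**
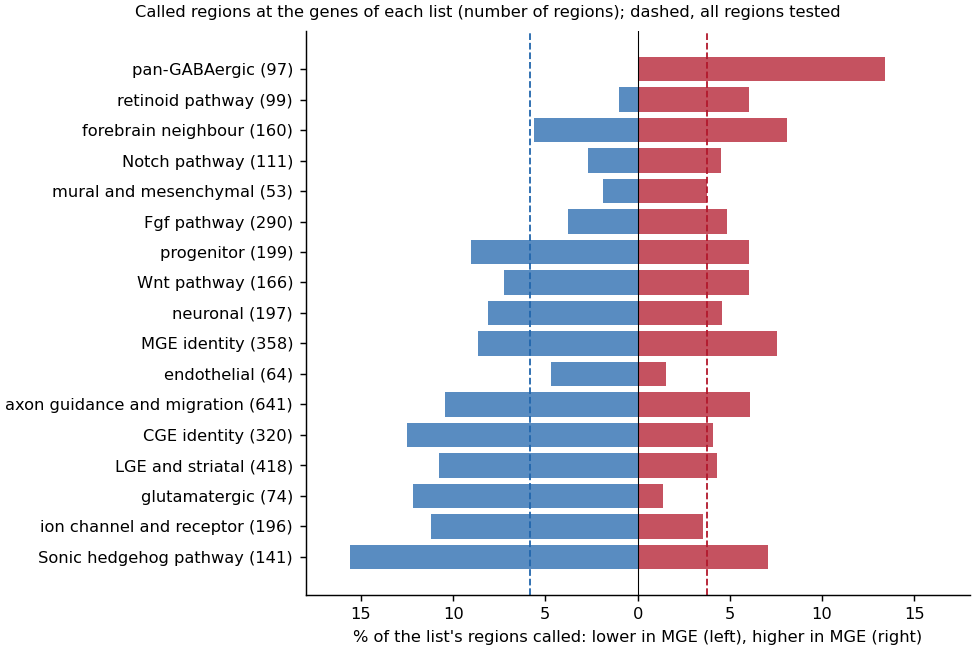
Share of each list's tested regions called lower (left, blue) or higher (right, red) in MGE, in percent, for lists with at least 50 regions (number in parentheses). Dashed lines give the shares over all regions, 5.85% and 3.74%. The pan-GABAergic list reaches 13.4% higher with no lower region, and the Sonic hedgehog list 15.6% lower.

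Short motifs were counted in 300 bases of every tested region, on both strands. Each window was centred on the longest stretch covered by peaks of all 6 samples. In the 702 regions without such a stretch it was centred on the middle of the region. CACTTNA was in 28.01% of windows higher in MGE, 16.3% of those lower, 14.6% of those not called and 15.2% of all. TAATTA showed the reverse, in 13.0% of higher, 24.4% of lower and 9.95% of not called windows, with 10.9% of all. TGACAG was in 36.0% of lower windows against 23.4% of those not called. AGGTCA, the nuclear receptor core motif that NR2F factors bind, was in 11.8% of higher and 13.4% of lower windows, with 13.3% of all.

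Promoters and base composition differed between the sets, so the shares were also taken away from starts and within a band of GC content. Over 1 kb from a start site CACTTNA was in 28.7% of higher, 16.5% of lower and 16.6% of not called windows, and TAATTA in 13.6%, 24.7% and 12.1%. Among those windows with a GC content of 45 to 50 percent the shares in higher, lower and not called windows were 30.3%, 15.98% and 18.4% for CACTTNA, 13.6%, 24.9% and 12.3% for TAATTA, and 26.3%, 37.8% and 26.7% for TGACAG. Among regions called without each sample in turn, CACTTNA was in 41.1% of higher and 17.5% of lower windows. With calls made under the covered-length offset it was in 30.9% and 17.5%, and TAATTA in 13.7% and 28.4%. In each of these sets of windows CACTTNA was thus more frequent in higher than in lower windows and TAATTA in lower than in higher, while the share of CACTTNA in lower windows lay above that of windows not called in some sets and below it in others. AGGTCA was in 11.6% of higher and 13.3% of lower windows over 1 kb from a start, in 10.6% and 15.2% within the GC band, in 8.01% and 14.46% among regions called without each sample in turn, and in 11.99% and 12.7% under the offset. Windows are not replicates, and no test was made.

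**Figure D5:**
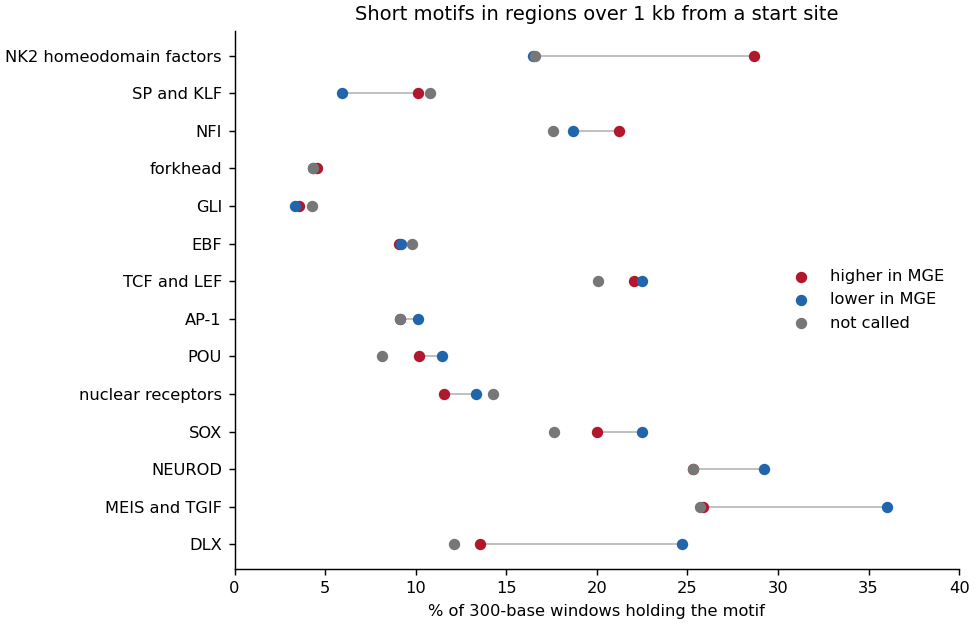
Share of 300-base windows holding each of 14 short motifs (rows, named by the factors that bind them), in percent, for regions over 1 kb from a start site that were higher in MGE (red), lower (blue) or not called (grey). The NK2 motif is in 28.7% of higher against 16.5% of lower windows, and the DLX motif in 13.6% against 24.7%.

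The deposited motif counts, which give per nucleus the counts in all peaks that hold a motif, showed smaller differences. None of 579 motifs was called by edgeR (0.0%), with 17 at an unadjusted p under 0.05 and a smallest adjusted p of 0.789, while DESeq2 called 7. The smallest p belonged to RUNX1, with 516 and 506 CPM in MGE, 435 and 467 in LGE, and 361 and 363 in CGE (log2 fold 0.50 ± 0.08, adjusted p = 0.789). Arid3b (0.41), NEUROD2 (0.44), Hoxa11 (0.79) and ZBTB18 (0.29) came next among those with a higher mean in MGE. SOX8 (-0.29), BHLHE23 (-0.47), PAX4 (-0.22), SOX13 (-0.26) and Lhx4 (-0.16) led the other direction, each with an adjusted p of 0.925. The 8 NK homeodomain motifs had log2 folds from -0.37 to 0.56 with a median of 0.01, of which 4 were higher and 2 lower without overlap and 2 had an unadjusted p under 0.05. Over all 579 motifs 127 were higher and 74 lower without overlap, and 17 had an unadjusted p under 0.05. The median was -0.08 for the 9 LIM homeodomain motifs, -0.09 for the 5 DLX motifs, 0.05 for the 13 NR2F and related motifs and -0.04 for the 10 MEIS, PBX and TGIF motifs, against 0.03 over all 579 motifs. These totals run over every peak with a motif, called or not, and the level of a motif in them cannot be told apart from the size of its peak set.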

How the data were processed

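The matrices deposited by the authors hold, for each nucleus of a sample, the counts of fragment ends in that sample's own peaks and in peaks that hold each motif. Per the labels they were made with Cell Ranger ATAC 1.2.0 on GRCm38 (mm10), with peaks called per sample. Counts were summed over the nuclei of a sample. Peaks of the 6 eminence samples were merged, a peak's counts went to the region or to every protein-coding gene (body plus 2000 bases upstream) that it overlapped, and regions needed a peak in all 6 samples. The tests were edgeR 4.0.16 quasi-likelihood fits (TMM, filterByExpr, Benjamini-Hochberg adjusted p of at most 0.05) over every region, gene and motif, with R 4.3.3, and the code was tested on simulated data. Alternatives were DESeq2 1.42.0, limma 3.58.1 for motifs, other scalings, filters, region and gene windows and sample sets, covered length as an offset, and the replicate number as a term. Regions covered over most of their length and the extra window sets for short motifs were added after seeing the data.

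Named were some members of the MGE and CGE identity lists, called as gene bodies or not, with up to 3 of their called regions each. Other members with called regions, such as Cxcr4, Etv1, Sst, Reln and Cck, were not described. Also named were up to 4 called genes of other lists, the largest folds without overlap between MGE and CGE (8 genes and 6 covered regions a direction), the 5 genes a direction with the most called regions, and the 5 motifs a direction with the smallest p. The regions and genes named for the identity lists and for the other lists were chosen after their values were seen. The members and the lists were chosen with earlier results of these data known. Sequences and gene models came from the GRCm38 reference. Counts give the depth, and the precision rests on the 2 samples per group.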

Additional observations from a re-analysis of the deposited data

How the results depend on the processing

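The low-count filter removed no region and no motif, so for these the fit without it was the same fit. The number of regions called was 7406 and stayed within 1.5 times of that with median-ratio size factors (7200), MGE and CGE only (7102), counts halved (7803) and separate scaling near and far from start sites (7501). It was 12379 with DESeq2, 4599 with covered length as an offset (2711 higher, 1888 lower, against 2888 and 4518), 3925 among 155270 regions with a peak in at least 2 samples, 4417 among 59509 regions covered over at least 50 percent of their length, 9 with all 8 samples, and 1897 (without CGE replicate 2) to 10807 without 1 sample at a time. Fewer samples were fitted in the latter, and regions with less covered sequence were tested in others, but the cause was not tested. With the offset the median log2 fold of all features was 0.10 for regions, against -0.01 without it, and 0.11 for genes.

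Called genes were 19, with 19 by median-ratio factors, 24 unfiltered, 22 with MGE and CGE only and 15 with all 8 samples, but 582 by DESeq2, 0 with the offset, 10 of 15594 from peaks within 1 kb of a start site, and 5 to 227 without 1 sample at a time. Where an arm kept 1 sample, that sample was assumed to vary like the other groups. No motif was called except the 7 by DESeq2, leave-one-out fits included. Log2 folds reversed under the offset for Morn5 (-0.39), chr1:190333083-190335595 (0.10, near Prox1), chr12:118833713-118838829 (-0.0335, near Sp8), chr8:8633519-8637362 (0.2294) and chr8:8613639-8617175 (0.1191) near Efnb2, and chr13:15548272-15557383 (0.3211, near Gli3), and for Dnal1 (-0.15) and Ccdc32 (-0.21) from peaks near start sites, with no such reversal past the threshold.

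The labels number the samples 1 and 2 in every group without tying a number to an embryo, litter or day. Correlations, between groups, of the deviations of same-numbered samples from their group means were 0.09, -0.01 and 0.30 for regions, 0.22, 0.05 and 0.32 for genes and 0.42, 0.40 and 0.28 for motifs over the 3 pairs of groups. With 2 numbers per group, a shared source could not be established from the data, although the share of odd count entries also went with the number. With the replicate block 7648 regions, 3 genes and 0 motifs were called.

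Of the values for named genes over the alternatives, 179 kept direction and call, 91 lost the call and 1 gained it. For named regions 886 kept both and 153 lost the call, and for motifs 147 kept both and 7 gained a call. The values kept for regions and motifs include those of the unfiltered fit, which was the same fit for them. Halved counts were fitted for regions alone, and named regions and genes at about 1 CPM or less in a group rest on few counts.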
